A study of Mus musculus with 2 samples.

Results

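The Bcl2 family decides whether a stressed cell keeps its mitochondria intact, and 10 of its genes were followed here by symbol in the deposited UMI count matrix of mouse colonic epithelium, out of 17829 genes in that matrix. They were the effectors Bax and Bak1, the BH3-only genes Bik, Bid, Bcl2l11, Bad, Bmf and Bbc3, and the anti-apoptotic genes Mcl1 and Bcl2l1. All 10 passed the minimum of 50 UMIs over both libraries when all cells were summed. The cells were live EpCAM+ cells sorted from the colon of C57BL/6 mice. One library was labelled Mettl14 KO and the other Mettl14 WT, with 1 library per genotype, and the series text gives 2 weeks without saying from when. Neither the number of animals behind each library, nor their age or sex, nor the way in which Mettl14 was deleted is given in the sources used here.

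In the mitochondrial pathway of apoptosis, Bax and Bak1 form the pores that release cytochrome c from mitochondria. Anti-apoptotic members such as Mcl1 and Bcl2l1, which encodes Bcl-xL, hold the effectors and the BH3-only proteins in check. BH3-only proteins report damage, loss of survival signals or death receptor signalling, and many of them act after transcription, through cleavage, phosphorylation or tethering. In the intestine, epithelial turnover and the response to radiation are settings in which these genes are well studied. METTL14 is a subunit of the complex that writes N6-methyladenosine on RNA.

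The data comprised 37635762 UMIs over 3653 Mettl14 KO cells, with 9119 in the median cell, and 60205658 UMIs over 4210 Mettl14 WT cells, with 12094 in the median cell. Mettl14 had 201 UMIs in the KO library and 632 in the WT library, a log2 ratio of −0.97 (−1.21 to −0.74), and a 3' tag outside the deleted part would check nothing. Its ratio ran from −1.65 to −0.97 in clusters 1 to 4. In cluster 0 it was −0.36 (−0.83 to 0.10), so the libraries were not told apart there at this depth. Whether the Mettl14 ratio differs between clusters was not tested. Its catalytic partner Mettl3 had a ratio of −0.82 (−1.02 to −0.63). Both libraries held cells of both sexes, since 1696 KO and 1689 WT cells had at least 3 Xist UMIs and no Y-linked UMI. A Y-linked UMI without any Xist UMI was found in 996 KO and 1540 WT cells. Of the authors' 7 clusters, clusters 1 and 2 were goblet-like, cluster 3 cycling-like, cluster 4 colonocyte-like and cluster 5 enteroendocrine-like by their markers. In cluster 3 the highest marker score was that of the erythroid list, which held 0 KO and 95 WT UMIs there and had no gene among the cluster's 10 leading genes. Cluster 0 was led by pancreatic enzyme genes and was left unnamed, and 0 of its KO cells and 33 of its WT cells were rich in these enzymes. Cluster 6, with 31 KO and 117 WT cells, was led by collagen genes despite the epithelial sort and was not compared. The libraries shared 2 cell barcodes. Throughout, a level is in CPM, the summed UMIs of a gene scaled by the summed total of the same cells, and a ratio is log2 of KO CPM over WT CPM with its 95% counting interval in brackets. With 1 library on each side there is no replicate check and no test. A gene is called higher or lower where it differed by at least 1.5-fold, a log2 ratio of 0.58, and its interval excluded equal levels.

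Among the 10 members, Bax and Bik were called higher and Bid and Bmf lower in the KO library, and 6 members were neither. Of all 13334 genes measured over all cells, 16.7% were called higher and 16.2% lower, so 2 of 10 in each direction is near the background of these libraries. The members' median log2 ratio was 0.40, beside −0.04 for all measured genes, and with every cell thinned to 3000 UMIs the members' median was 0.23. By size of ratio Bax ranked 514 and Bik 600 from the highest of the 13334 genes. Bmf ranked 1233 and Bid 1724 from the lowest.

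**Figure D1:**
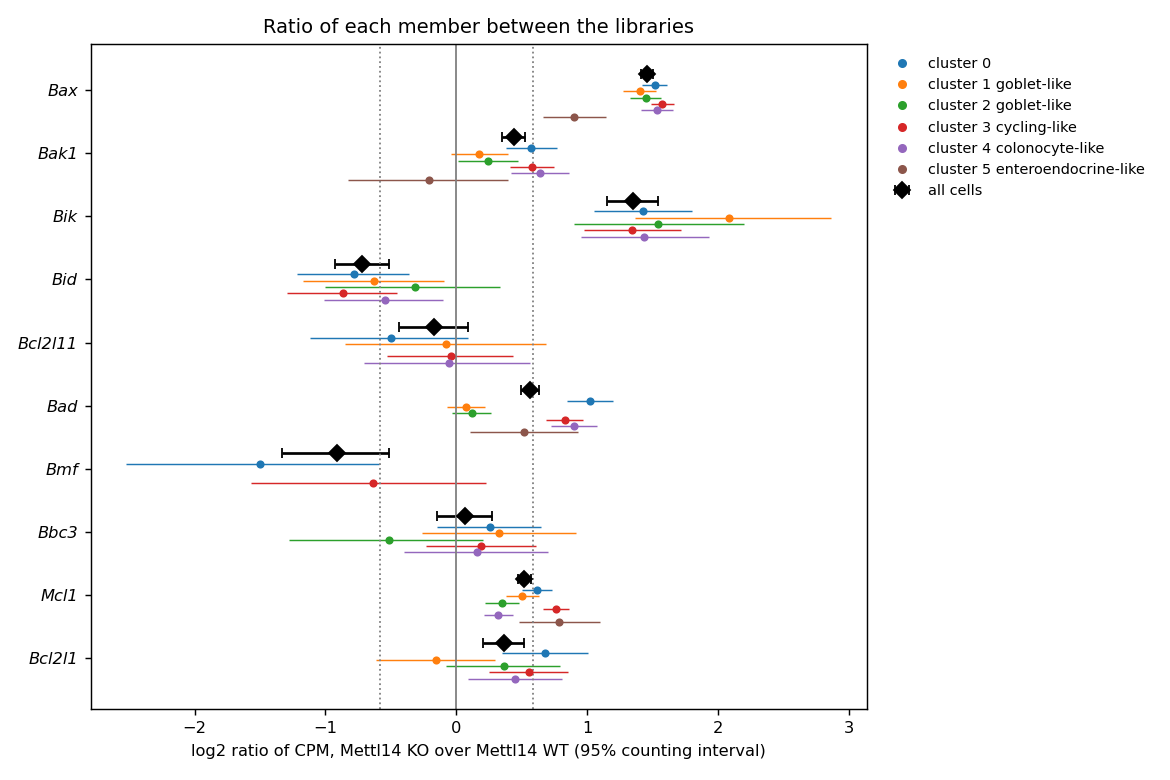
Log2 ratio of CPM, Mettl14 KO over Mettl14 WT, for each member over all cells (black diamonds) and in clusters 0 to 5 (coloured points, shown where the gene was measured), with 95% counting intervals and dotted lines at 1.5-fold. Bax lies right of the upper line in every cluster, and Bid and Bmf lie left of the lower line over all cells.

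Bax, the cytosolic effector that moves to mitochondria during apoptosis, had 10512 UMIs in the KO library and 6113 in the WT library, although the WT library was the deeper one. Its level was 279 CPM (274 to 285) in KO cells and 102 CPM (99.0 to 104) in WT cells, a log2 ratio of 1.46 (1.41 to 1.51), or 2.75-fold. Bax lies on chromosome 7 from 45461697 to 45466898 on the minus strand of GRCm38. Its promoter is shown because Bax is a textbook p53 target and several p53 targets differed between these libraries, as described further on. The window, chr7:45466849-45467148 on the minus strand, runs from 250 bases before to 50 bases after the start annotated by RefSeq on GRCm38.p6. A second window is from Bmf, at chr2:118544538-118544837 on the minus strand, and belongs to an alternative start inside the annotated gene, which ends at 118549687. It is 1 of 3 Bmf windows, and the other two held no match. Capitals mark a match to the p53 half-site, searched by that name's consensus on both strands.
Bax: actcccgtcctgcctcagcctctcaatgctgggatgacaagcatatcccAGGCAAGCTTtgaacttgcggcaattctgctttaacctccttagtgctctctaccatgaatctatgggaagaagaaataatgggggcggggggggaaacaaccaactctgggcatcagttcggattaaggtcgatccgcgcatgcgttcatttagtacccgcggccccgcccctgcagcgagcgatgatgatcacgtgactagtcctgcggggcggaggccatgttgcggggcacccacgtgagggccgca
Bmf: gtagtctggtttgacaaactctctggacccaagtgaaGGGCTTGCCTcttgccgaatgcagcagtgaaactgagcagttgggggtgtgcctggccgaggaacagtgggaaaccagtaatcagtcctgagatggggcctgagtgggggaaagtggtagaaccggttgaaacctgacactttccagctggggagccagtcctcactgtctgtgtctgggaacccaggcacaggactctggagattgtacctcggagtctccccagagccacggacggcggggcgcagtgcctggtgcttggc
The match begins 201 bases before the start in Bax and 213 bases before that alternative start in Bmf. Of 17 windows of the 9 members with one, 2 held a match (11.8%), beside 2745 of 32851 windows of all genes (8.36%). The 2 genes with a match went in opposite directions, and a match in these letters is a description, not a binding site.

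By cluster, Bax stood at 335 CPM in KO cells and 117 CPM in WT cells of cluster 0, a log2 ratio of 1.52 (1.42 to 1.61). In goblet-like cells it stood at 221 CPM in KO and 83.6 CPM in WT cells of cluster 1, and at 258 CPM in KO and 94.7 CPM in WT cells of cluster 2. Cycling-like cells had 293 CPM in KO and 98.4 CPM in WT, and colonocyte-like cells 279.7 CPM in KO and 96.4 CPM in WT. The KO level lay above the WT level in all 6 clusters compared, without overlap of their intervals. Enteroendocrine-like cells had 341 CPM (308 to 377) in KO, which overlapped cluster 0 at 322 to 349, and 182 CPM (159.5 to 207) in WT, above the other clusters, with the smallest ratio, 0.90 (0.67 to 1.14). The ratios in clusters 0 to 4 exceeded the enteroendocrine-like one by 0.50 to 0.67 on the log2 scale, and the counting interval of each of these 5 differences lay above 0. The comparison follows the smallest of these same ratios, so the intervals describe it and are no check. From highest to lowest the clusters ran 5, 0, 3, 4, 2, 1 in both libraries. The intervals of 3 of the 5 neighbouring pairs overlapped in each library, namely clusters 3 and 4 and clusters 4 and 2 in both, clusters 5 and 0 in KO and clusters 2 and 1 in WT.

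**Figure D2:**
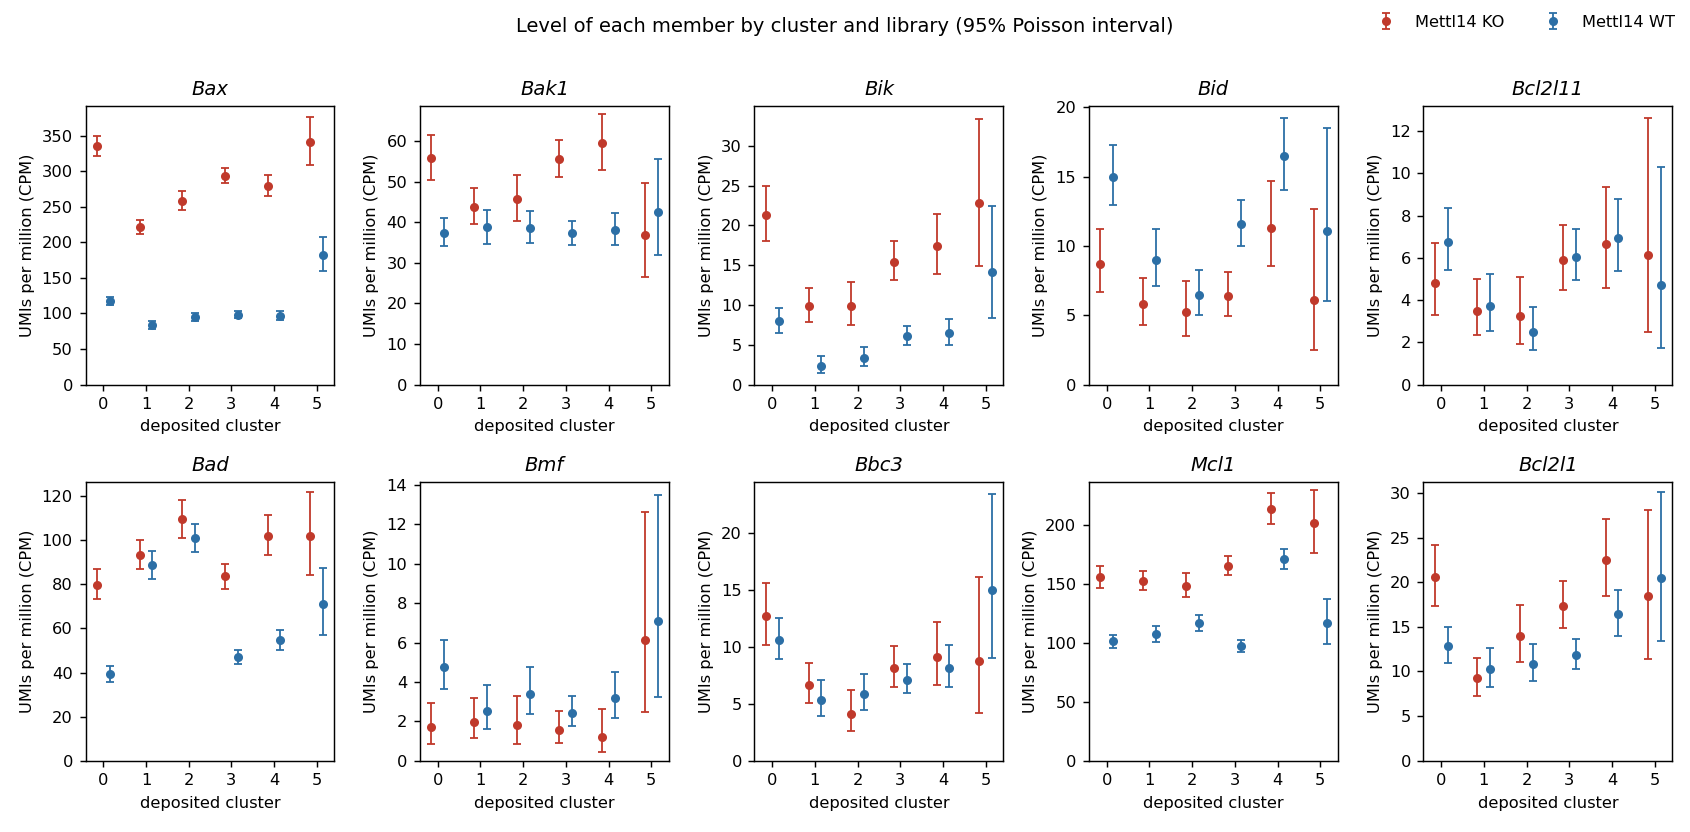
Level of each member in CPM by deposited cluster (0 to 5), Mettl14 KO in red and Mettl14 WT in blue, with 95% Poisson intervals and axes that start at 0. For Bax the KO points span 221 to 341 CPM and the WT points 83.6 to 182 CPM. For Bad the intervals of the 2 libraries overlap in clusters 1, 2 and 5.

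The Bax difference was not held by a few cells. After thinning every cell to 3000 UMIs, which left out 97 KO and 172 WT cells, at least 1 Bax UMI was found in 53.2% of KO cells (51.6 to 54.9) and 27.2% of WT cells (25.8 to 28.6). Without thinning these shares were 85.1% of KO cells and 67.6% of WT cells. Cells with 3 or more Bax UMIs made up 7.65% of thinned KO cells and 0.718% of thinned WT cells. The tenth of cells with the most Bax held 29.2% of its UMIs in the KO library and 34.1% in the WT library. Since no cell type here is known to lack Bax, a share from cells without the gene could not be given.

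**Figure D3:**
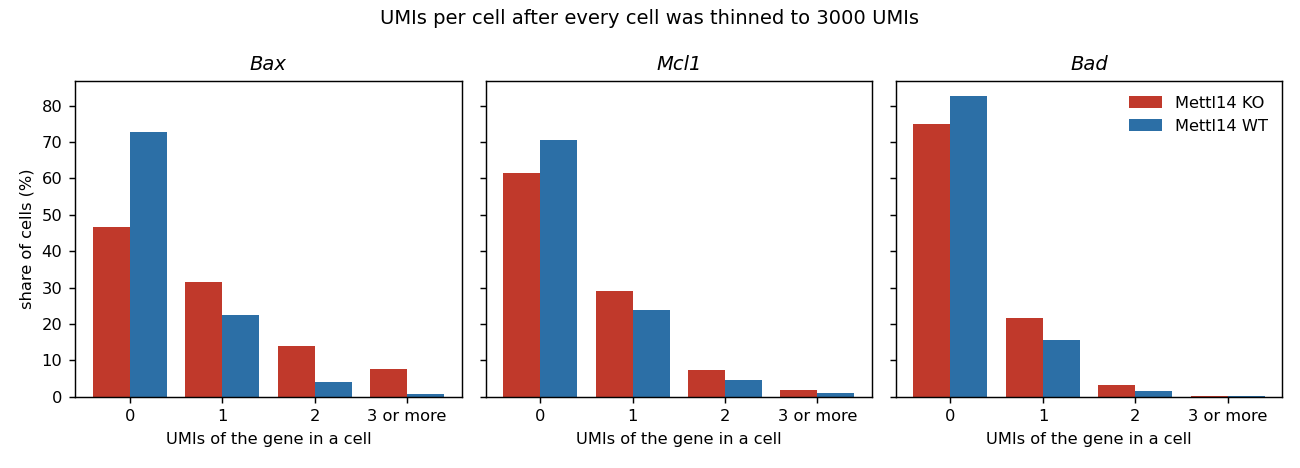
Share of cells (percent) with 0, 1, 2 and 3 or more UMIs of Bax, Mcl1 and Bad after thinning each cell to 3000 UMIs, Mettl14 KO in red and Mettl14 WT in blue. Cells without a Bax UMI are 46.8% of KO cells and 72.8% of WT cells.

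Bak1, the effector that resides on mitochondria, differed less. It had 51.4 CPM in KO cells and 37.9 CPM in WT cells, a log2 ratio of 0.44 (0.35 to 0.53), which is below 1.5-fold. In WT cells its level was nearly even, from 37.3 to 42.6 CPM over 6 clusters with all intervals overlapping, and in KO cells it ran from 36.8 CPM in enteroendocrine-like cells to 59.5 CPM in colonocyte-like cells. It was called higher in colonocyte-like cells, at 0.64 (0.42 to 0.87), while cluster 3, at 0.58 (0.41 to 0.74), and cluster 0, at 0.57 (0.38 to 0.77), lay just under the mark. Of the 9 alternative settings of scaling, depth and cells tried within clusters, it was called in 3 in cluster 4, in 3 in cluster 3 and in 2 in cluster 0. Bax UMIs per Bak1 UMI, a ratio that does not depend on library depth, were 5.44 in the KO library and 2.68 in the WT library.

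Among the BH3-only genes, Bik was called higher. Bik, whose protein sits mainly at the endoplasmic reticulum, had 564 UMIs in the KO library and 354 in the WT library, or 14.99 CPM (13.8 to 16.3) in KO and 5.88 CPM (5.28 to 6.53) in WT, a log2 ratio of 1.35 (1.16 to 1.55). It was higher in KO cells of clusters 0 to 4, with ratios from 1.35 (0.98 to 1.72) in cycling-like cells to 2.09 (1.37 to 2.87) in goblet-like cluster 1, where the WT count was 20 UMIs and the ratio ran from 0.75 with thinned cells to 3.78 in the Xist cells that lacked Y-linked UMIs. In enteroendocrine-like cells it had 26 KO and 18 WT UMIs, under the minimum. Its clusters ran 5, 0, 4, 3, 2, 1 from highest to lowest in both libraries, but the intervals of 4 of the 5 neighbouring pairs overlapped in each. Its call in goblet-like and colonocyte-like cells was held in 5, 5 and 6 of 9 settings in clusters 1, 2 and 4. Thinning was among those that lost it. Its lowest ratio over these settings was 0.75, 1.18 and 0.87 in clusters 1, 2 and 4, always above the 1.5-fold mark. The calls were thus lost where fewer UMIs widened the interval or fell under the minimum.

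Bid and Bmf were called lower. Bid, which caspase-8 cleaves to link death receptors to mitochondria, had 270 UMIs in the KO library and 712 in the WT library, or 7.17 CPM in KO and 11.8 CPM in WT, a log2 ratio of −0.72 (−0.93 to −0.52). It was lower in KO cells of cluster 0 (−0.78), cluster 1 (−0.63) and cluster 3 (−0.86). In colonocyte-like cells it was −0.54 (−1.01 to −0.10), just under the mark, and was called lower in 3 of 9 settings. In goblet-like cluster 2 it was −0.32 (−1.003 to 0.33), not detectable at this depth. In cells with at most 10% mitochondrial UMIs its ratio was −0.42 and the call was lost. Bmf, whose protein is tethered to the cytoskeleton, was the sparsest member, with 69 KO and 208 WT UMIs, 1.83 CPM in KO and 3.45 CPM in WT, and a log2 ratio of −0.91 (−1.33 to −0.51). Only in clusters 0 and 3 did it reach 50 UMIs, and it was called lower in cluster 0 with 12 KO and 62 WT UMIs. Bik UMIs per Bid UMI were 2.09 in the KO library and 0.497 in the WT library. The pair joins a member called higher with a member called lower, so this shift follows from those calls and is a description only.

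Bad, a BH3-only protein that 14-3-3 proteins hold back when it is phosphorylated, depended on the cluster. Over all cells it had 91.9 CPM in KO and 62.2 CPM in WT, a log2 ratio of 0.56 (0.50 to 0.63), just under the 1.5-fold mark, and it was past that mark in 6 of the 19 alternative settings tried over all cells. In goblet-like cells the libraries were close, with 93.4 CPM in KO and 88.6 CPM in WT in cluster 1, and 109 CPM in KO and 101 CPM in WT in cluster 2. In clusters 0, 3 and 4 it was called higher, with 79.9 CPM in KO and 39.2 CPM in WT in cluster 0 (1.03, 0.85 to 1.20). Cycling-like cells had 83.6 CPM in KO and 47.0 CPM in WT (0.83, 0.69 to 0.97), and colonocyte-like cells had 102 CPM in KO and 54.5 CPM in WT (0.90, 0.72 to 1.08). In enteroendocrine-like cells it was not called, at 102 CPM in KO and 71.0 CPM in WT (0.52, 0.11 to 0.93). There its ratio ran from −0.05 to 0.57 over the alternative settings. The ratios in clusters 0, 3 and 4 exceeded those in the goblet-like clusters by 0.71 to 0.95 on the log2 scale, with counting intervals above 0 in all 6 pairs. The highest cluster stood 1.37-fold over the lowest in KO cells and 2.57-fold in WT cells. The summed level of 8 goblet markers was 2338 CPM in KO and 1224 CPM in WT in cluster 0, 5053 CPM in KO and 6532 CPM in WT in cluster 3, and 3738 CPM in KO and 3504 CPM in WT in cluster 4. All 8 markers were above 0 in both libraries in these clusters. The summed level of 8 colonocyte markers was 181 CPM in KO and 826 CPM in WT in cluster 1, and 194 CPM in KO and 1325 CPM in WT in cluster 2. In clusters 0, 3 and 4 it was 417, 295 and 1555 CPM in KO, and 234, 336 and 1268 CPM in WT. Of these 8 markers, 7 were above 0 in KO cells of clusters 0 and 2, and all 8 elsewhere in clusters 0 to 4. The part of either marker list in the Bad values was not tested.

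The other BH3-only genes were close between the libraries over all cells. Bcl2l11, which encodes Bim, had 4.92 CPM in KO and 5.53 CPM in WT, with −0.17 (−0.44 to 0.09). Bbc3, the p53 target Puma, had 8.21 CPM in KO and 7.84 CPM in WT, with 0.07 (−0.15 to 0.28). Neither was called in any setting or in any cluster where it was measured. Bcl2l11 was under the minimum in clusters 2 and 5, and Bbc3 in cluster 5. Their intervals over all cells exclude a 1.5-fold difference. Within clusters some intervals reached past 1.5-fold, such as −0.51 (−1.28 to 0.20) for Bbc3 in cluster 2 and −0.50 (−1.12 to 0.09) for Bcl2l11 in cluster 0.

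Mcl1, a short-lived guard of Bak1 and of Bim, was the most abundant anti-apoptotic member, with 6240 UMIs in the KO library and 6966 in the WT library. Its level was 166 CPM in KO and 116 CPM in WT, a log2 ratio of 0.52 (0.47 to 0.57). It was called higher in cluster 0 (0.62), cluster 3 (0.76, 0.66 to 0.86) and cluster 5 (0.79, 0.48 to 1.10). Colonocyte-like cells had 214 CPM (201 to 227) in KO and 171 CPM (163 to 179) in WT, the highest of the 6 clusters in WT, while in KO the interval of enteroendocrine-like cells, 176 to 229 CPM, overlapped theirs. Their ratio was 0.32 (0.21 to 0.43), close to 0.35 (0.22 to 0.48) in cluster 2, and it ran from 0.15 to 0.79 over the alternative settings. Bcl2l1 had 16.3 CPM in KO and 12.7 CPM in WT, with 0.36 (0.21 to 0.52), and was called in cluster 0, at 0.68 (0.35 to 1.008). It was just under the mark in cluster 3, at 0.55 (0.25 to 0.85), and was called in 5 of 9 settings in cluster 0, 4 in cluster 3 and 1 in cluster 4.

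By cluster, the calls can be read against the share of all genes called there. In cluster 0, Bax, Bik, Bad, Mcl1 and Bcl2l1 were higher and Bid and Bmf lower, 5 and 2 of 10 members, where 19.9% of genes were called higher and 12.9% lower. In cluster 1, Bax and Bik were higher and Bid lower, of 9 measured, with 13.1% of genes higher and 16.8% lower. In cluster 2, Bax and Bik were higher and no member lower, of 8 measured, with 14.4% higher and 16.7% lower. In cluster 3, Bax, Bik, Bad and Mcl1 were higher and Bid lower, of 10, with 17.5% higher and 11.7% lower. In cluster 4, Bax, Bak1, Bik and Bad were higher and none lower, of 9, with 16% higher and 12.7% lower. In cluster 5, Bax and Mcl1 were higher and none lower, of 4 measured, with 14.9% higher and 9.76% lower. Bax was the 1 member called in all 6, and in 9 of 9 alternative settings in each. Less settled were the calls of Bid, made in 6, 3 and 7 of 9 settings in clusters 0, 1 and 3, and in cluster 0 those of Bmf (5 of 9) and Mcl1 (7 of 9). A setting that keeps fewer UMIs can lose a call without a smaller ratio. In cluster 0 the ratios of Bid (−1.10 to −0.62) and Bmf (−2.99 to −0.84) stayed past 1.5-fold over the alternatives. In cluster 0 the summed level of 7 immune markers was 63.0 CPM in KO and 36.0 CPM in WT. This was not particular to cluster 0. In clusters 1, 4 and 5 the sum was 77.2, 87.4 and 167 CPM in KO, and 35.1, 51.4 and 99.4 CPM in WT. In clusters 2 and 3 it was 47.2 and 29.3 CPM in KO, and 49.8 and 23.4 CPM in WT. Only cluster 0 was also read without cells that held these markers. Among its 727 KO and 968 WT cells with no UMI of them, the Bax ratio was 1.53, that of Bik 1.48, that of Bad 1.02 and that of Bmf −1.49.

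Summed by role, the 2 effectors had 331 CPM in KO and 139 CPM in WT (1.25, 1.21 to 1.29). The 6 BH3-only genes had 129 CPM in KO and 96.7 CPM in WT (0.41, 0.36 to 0.47), of which Bad made up most. The 2 anti-apoptotic members had 182 CPM in KO and 128 CPM in WT (0.50, 0.46 to 0.55). The effector sum thus differed more than the anti-apoptotic sum, while Bak1 alone, at 0.44, did not. There were 1.68 Bax UMIs per Mcl1 UMI in the KO library and 0.878 in the WT library. The same ratio in enteroendocrine-like cells was 1.69 in KO and 1.56 in WT, the smallest difference of the 6 clusters. Each UMI counts 1 molecule tagged at its 3' end, and capture can differ between genes, so these ratios compare the libraries and not the amounts of protein.

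Other Bcl2 family genes were also read. Of 16 listed, 13 were in the matrix and 11 were measured, and 2 were called higher, 1 lower and 8 neither, with a median of 0.12. Bcl2, the founding anti-apoptotic member, was lower, with 971 UMIs in the KO library and 2773 in the WT library, 25.8 CPM in KO and 46.1 CPM in WT, and a log2 ratio of −0.84 (−0.94 to −0.73). It was lower in KO cells of clusters 1 to 4, by ratios from −1.43 in goblet-like cluster 2 to −0.87 in colonocyte-like cells, and higher in enteroendocrine-like cells. The 2 called higher were Bcl2a1d (2.04) and Bcl2a1b (1.004), near-identical copies between which reads can be split, at 1.43 and 2.50 CPM in KO and 0.349 and 1.25 CPM in WT. Over all cells the neither group held Bok (0.46), Bcl2l12 (0.32), Bnip3 (0.26), Pmaip1 (0.12), Bcl2l14 (−0.02), Bcl2l13 (−0.15), Bcl2l2 (−0.27) and Bnip3l (−0.50). Within clusters, Bok was called higher in clusters 0 (0.61), 3 (0.61) and 5 (1.35, 0.83 to 1.89). In cluster 5 it had 90.3 CPM in KO and 35.5 CPM in WT. Bnip3l was called lower in clusters 1 (−0.59) and 4 (−0.76), and the cluster calls of Bnip3 and Pmaip1 are given further on. Bax UMIs per Bcl2 UMI were 10.8 in the KO library and 2.20 in the WT library, but 3.41 in KO and 3.16 in WT among enteroendocrine-like cells.

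**Figure D4:**
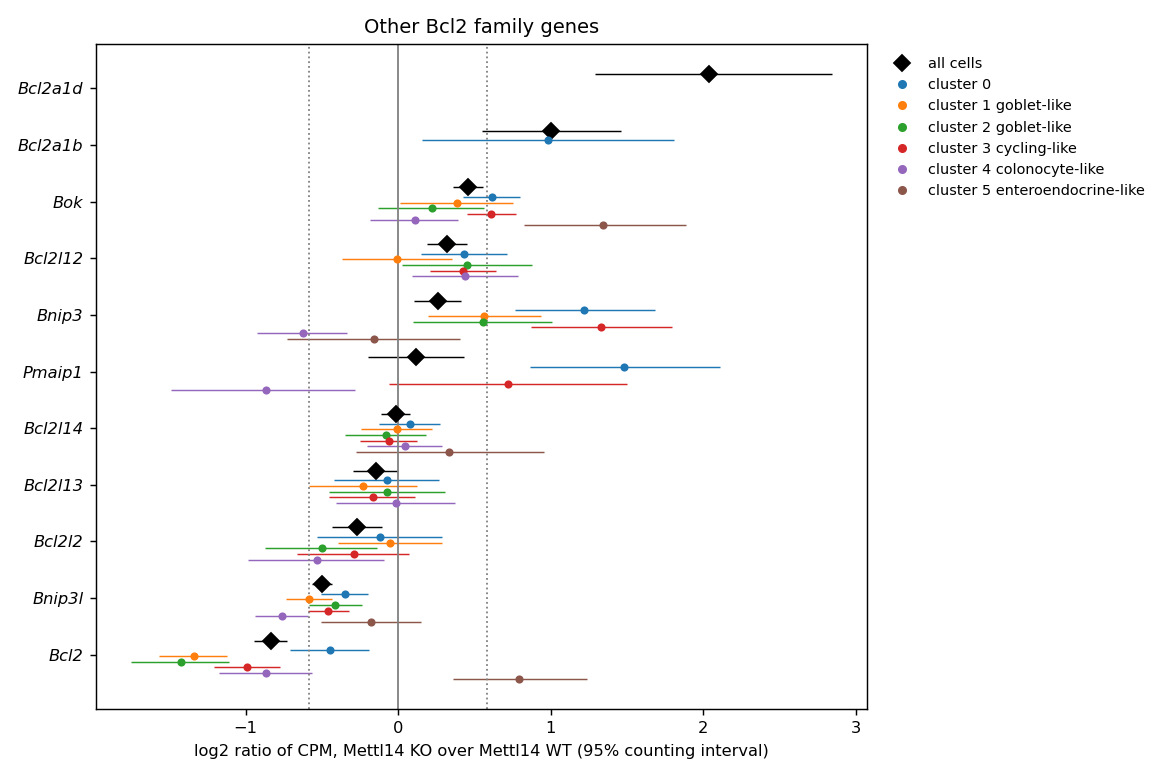
Log2 ratio of CPM, Mettl14 KO over Mettl14 WT, for 11 other Bcl2 family genes over all cells (black diamonds) and in clusters 0 to 5 (coloured points), with 95% counting intervals and dotted lines at 1.5-fold. Bcl2 lies left of the lower line in clusters 1 to 4 and right of the upper line in the enteroendocrine-like cluster 5.

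Genes around the family were read as 5 lists, which share a few genes such as Casp8 and Fas, beside the 16.7% of all genes called higher and 16.2% called lower over all cells. Of the 22 measured genes of the p53 pathway, 9 were called higher and 3 lower, with a median of 0.45. Phlda3, a repressor of Akt, had 49.1 CPM in KO and 4.07 CPM in WT (3.59, 3.40 to 3.79), and Gdf15, a stress cytokine, had a ratio of 2.60. Eda2r, a receptor of the TNF receptor family, had 2.31, and the cell-cycle inhibitor Cdkn1a had 131 CPM in KO and 48.7 CPM in WT (1.42, 1.36 to 1.49). Transcripts of Trp53 itself were lower at −0.63 (−0.70 to −0.56), and its inhibitor Mdm2 stood at 0.51 (0.39 to 0.63). Among genes of the list with a role in apoptosis, the nuclease gene Aen was higher at 1.29 (1.18 to 1.40), Pidd1, which acts with caspase-2, was lower at −0.62 (−0.98 to −0.27), and Fas was not called at 0.16 (−0.15 to 0.46). Of the same list, Trp53inp1 was lower at −0.61 (−0.74 to −0.48), and Perp (−0.50), Tnfrsf10b (0.53) and Ei24 (0.16) were not called.

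Of 13 measured genes of TNF and death receptor signalling, 8 were called higher and 0 lower, with a median of 0.75. The cytokine Tnf had 7.47 CPM in KO and 1.21 CPM in WT (2.62, 2.25 to 3.01), Tnfrsf1b had a ratio of 1.77, Tnfsf10, which encodes TRAIL, 1.14, and the adaptor Tradd 1.13. Casp8, whose protease cleaves Bid, was close at −0.06 (−0.14 to 0.02). Of 16 apoptosome and caspase genes, 2 were higher and 1 lower, with a median of −0.17. The inhibitor of apoptosis Birc3 (1.66) and the nuclease Endog (0.75) were higher, and Casp2 (−0.94) was lower. Downstream of the pore, Apaf1 (−0.10), Casp9 (−0.35) and Cycs (0.43) were not called. These 3 genes were named after their values were seen, as were Aen, Pidd1, Fas, Trp53inp1, Perp, Tnfrsf10b and Ei24.

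Of 20 genes upstream of the members, which regulate their transcription or act on their proteins, 2 were higher and 3 lower, with a median of −0.10. Among genes for 14-3-3 proteins, Ywhah was higher (0.94), and Ywhaz (−0.68) and Ywhaq (−0.62) were lower. Ywhag (0.40), Ywhab (−0.12) and Ywhae (−0.56), named after their values were seen, were not called over all cells. The dynein light chain Dynll2, which tethers Bmf, was higher (0.65), and Huwe1, a ubiquitin ligase of Mcl1 that was named after its value was seen, was lower (−0.60). Usp9x (−0.52) and Fbxw7 (0.09), also of this list and named after their values were seen, were not called. Of 17 immediate early and dissociation genes, 1 was higher and 10 were lower, and the list's median was −1.16. Fosb had 12.3 CPM in KO and 125 CPM in WT (−3.35), and Fos, Dusp1 and Atf3 had ratios of −2.11, −2.83 and −3.14. These genes respond to tissue handling as well as to signals in the animal, and their part in the members' values was not tested.

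**Figure D5:**
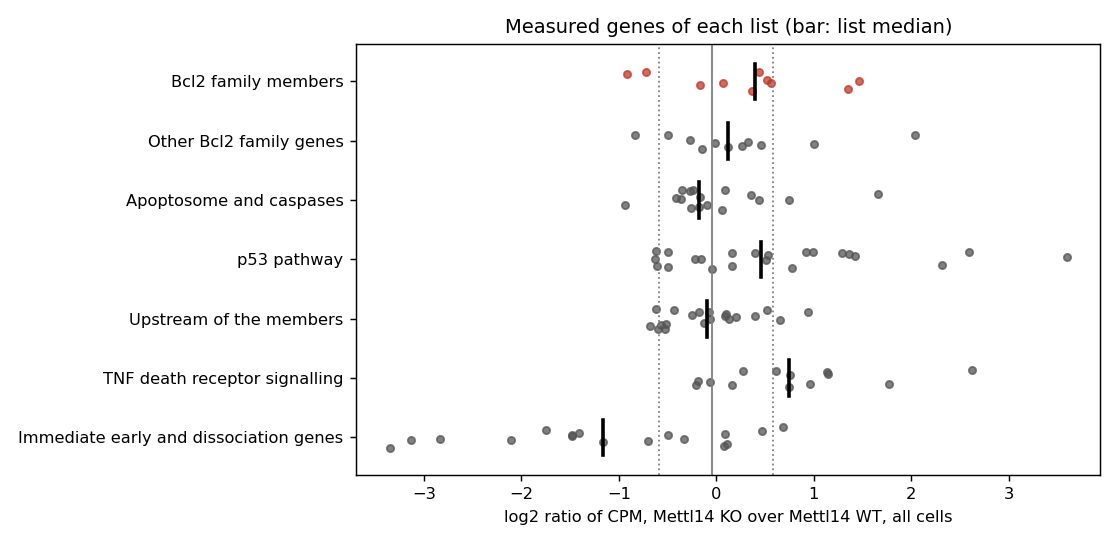
Log2 ratio of CPM, Mettl14 KO over Mettl14 WT, over all cells for each measured gene of the members (red) and of 6 further lists (grey), with the list median as a bar, 1.5-fold as dotted lines and the median of all genes as a grey line. The medians run from −1.16 for immediate early genes to 0.75 for TNF and death receptor signalling, with 0.40 for the members.

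The genes most like Bax in pattern, by Pearson correlation of log2(CPM + 1) over the 13 cluster-by-library groups with at least 50 cells and among 5648 genes with at least 2000 UMIs, were Phax (0.978), Thap7 (0.978) and Mrpl41 (0.976). For Bik they were Zfp637 (0.945), Kctd12 (0.928) and Jmjd6 (0.925). For Bad they were C1qtnf6 (0.947), Snf8 (0.947) and Sra1 (0.942). For Bak1 they were Mrpl40 (0.946), Cox10 (0.934) and Eif6 (0.926), and for Mcl1 Neu1 (0.913), Tor1aip2 (0.907) and Ccdc32 (0.899). Between Bax and Bik the correlation was 0.80. The groups of 1 library share its depth and preparation, so these values only describe the 13 groups.

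Exons of some members overlap other genes in GENCODE vM21. Bid shares 628 exon bases with Bcl2l13 and Bad shares 524 with Gpr137, both on the opposite strand, as Bak1 does with Ggnbp1. Bax shares 192 exon bases with Gm45808 on its own strand. How reads in such bases were assigned is not given in the sources used here, so the counts of these 4 members are uncertain to that extent.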

How the data were processed

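Single-cell 3' libraries (10x Genomics, V2 per the labels' protocols) were made from sorted live EpCAM+ cells. The authors deposited whole-number UMI counts per gene and cell, with a table of each cell's library and cluster. Per the submitters' processing notes, bcl2fastq, Cell Ranger and mm10 were used. Their versions, the cell filter and the clustering are not given in the sources used here. The deposited counts were summed per library, and per cluster of each library, and scaled by those sums' totals to CPM. The ratio intervals are exact conditional binomial, those of CPM exact Poisson and those of cell shares exact Clopper-Pearson, all at 95% and covering counting error only. With 1 library per genotype there are no replicates and no test, so values compare these libraries and not the genotypes. Genes with at least 50 UMIs over both libraries were measured, and a cluster was compared where each library gave it at least 50 cells. Doublets were not removed. Cells that held Xist together with a Y-linked UMI, 304 KO and 437 WT, were left out as an alternative.

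Named genes were all members, the measured other family genes, up to 4 called genes per list by the interval bound nearest to 0, Trp53, Mdm2, Cdkn1a, Casp8, Tnf, Mettl14 and Mettl3, and the 3 genes most alike in pattern. The members and lists were chosen with earlier results of these data known. Alternatives changed the scaling, depth, cells kept, cluster weights, the fold and the UMI minimum. The interval and call steps were tested on simulated data. Python 3.11.15, numpy 2.4.6, scipy 1.17.1 and pandas 2.3.3 were used. Positions follow GENCODE vM21 on GRCm38 and promoters RefSeq on GRCm38.p6.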

Additional observations from a re-analysis of the deposited data

Results flagged for a closer look

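A few genes of the wider family were called in opposite directions in different clusters; with 1 library per genotype the difference between clusters was not tested. The anti-apoptotic gene Bcl2 was higher in KO enteroendocrine-like cells, at 99.9 CPM in KO and 57.6 CPM in WT, a log2 ratio of 0.79 (0.36 to 1.24). It was lower in KO cells of cluster 1 (−1.34), cluster 2 (−1.43), cluster 3 (−0.99) and cluster 4 (−0.87). The enteroendocrine-like ratio exceeded these 4 by 1.66 to 2.22 on the log2 scale, with counting intervals above 0. The clusters were taken for their opposite calls, which fixed this outcome, so it is a description and no check.

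Pmaip1, the BH3-only gene Noxa, was higher in KO cells of cluster 0, with 58 KO and 38 WT UMIs (1.48, 0.87 to 2.11). It was lower in KO colonocyte-like cells, with 31 KO and 112 WT UMIs (−0.87, −1.49 to −0.28). Bnip3, a mitochondrial BH3-like gene induced by hypoxia, was higher in KO cells of cluster 0 (1.22, 0.76 to 1.68) and of cycling-like cluster 3 (1.33, 0.87 to 1.80). It was lower in KO colonocyte-like cells, at 25.9 CPM in KO and 40.0 CPM in WT (−0.63, −0.93 to −0.34).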

How the results depend on the processing

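Bax and Bik were called higher over all cells in 19 of 19 settings, with log2 ratios of 1.39 to 1.51 and 1.08 to 1.48. Bmf was called lower in 18 and Bid in 17. The number of members called lower was 1 in cells with at most 10% mitochondrial UMIs and 0 at a 2-fold mark. The number called higher was 4 in the Xist cells that lacked Y-linked UMIs, where Bad and Mcl1 joined Bax and Bik. The members' median was 0.23 with cells thinned to 3000 UMIs. The cause of these shifts was not tested, apart from the 2-fold mark, which asks for more. No ratio of a called member turned round. Scaling without mitochondrial and ribosomal-protein genes put the median of all genes at −0.11, beside −0.04. Cluster 0 cells without immune marker UMIs were chosen as a setting after seeing the data. No paired analysis was possible because there is 1 library per genotype, and for the same reason no replicate could be left out. Depth limits Bmf, Bid, Bcl2l11 and Bbc3 within clusters, and Bik in clusters 1, 2, 4 and 5.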
